A study of Mus musculus with 16 samples.

Results

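The unsorted Input of the mouse brain was set against the cells that were taken out of it. RNA of 4 Input libraries was compared with that of 12 libraries of sorted cells, 4 each of Microglia, Astrocytes and Neurons, which together are all 16 of the 16 libraries of the series. The libraries were chosen by their labels, and every library entered. The animals were male C57BL/6 wildtype mice whose labels name no treatment and give no age. Animals 2, 3, 4 and 5 each gave 1 library of every group. Brains were perfused and dissociated with an enzymatic kit, and live cells positive for CD11b (Microglia), EAAT2 (Astrocytes) or Thy1 (Neurons) were collected by flow cytometry. Gates against the oligodendrocyte antigen O1 and the endothelial antigen CD31 applied to the sorted cells. The Input samples carry "pooled" in their titles, with no word in the labels on when in the procedure they were drawn. The question that the design puts here is which transcripts of the whole suspension exceed their level in the 3 collected populations.

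The brain holds several cell types that none of the 3 antibodies selects. Endothelial cells line its vessels and form the blood-brain barrier, pericytes and smooth muscle cells wrap them, and fibroblasts build the meninges. Oligodendrocytes make myelin, and their precursors divide throughout adult life. The choroid plexus epithelium secretes cerebrospinal fluid into the ventricles, and ependymal cells, which line the ventricles, beat motile cilia. Neuroblasts born next to the lateral ventricle migrate to the olfactory bulb.

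The libraries were made from the 3' ends of transcripts. Total counts were 1702665 to 2811080 in Input and 116761 to 1413564 in the sorted libraries, so that every sorted library was shallower than every Input library. Mitochondrially encoded genes held 8.94% ± 2.29 of the counts in Input, 3.77% ± 1.38 in Microglia, 9.15% ± 0.828 in Astrocytes and 18.7% ± 3.19 in Neurons (SD, n = 4 each). All 28936 deposited counts of 100 or more carry 2 significant digits, an error of up to 5% for each.

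Levels are CPM, counts scaled to a common library total with TMM factors. Fold changes are log2 values of Input over the mean of the 3 sorted groups, with each group given equal weight on the log scale. A change given after "by" or "at" is on this log2 scale. A value after ± is the standard error of a fold change or the SD of CPM over the 4 libraries of a group. A gene was called higher or lower when its adjusted p was under 0.05 in edgeR's quasi-likelihood test with Benjamini-Hochberg adjustment over the 9091 genes tested. The labels tie libraries to animals, so that the p-values measure the spread between libraries of 4 animals.

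Of the 9091 genes tested, 1929 were higher in Input (21.2%) and 1025 were lower (11.3%), or 32.5% in all. The change was 4-fold or more for 409 of the higher and 83 of the lower genes, and the median fold change of all genes tested was 0.09. Input had the highest mean of the 4 groups for 1298 of the 1929 higher genes (67.3%). The highest mean was in Astrocytes for 304 of them, in Neurons for 232 and in Microglia for 95, which an equal-weight mean of logs allows when the other sorted groups are low. The lower genes were highest in Microglia for 481, in Astrocytes for 311 and in Neurons for 233. All 4 Input libraries stood above all 12 sorted libraries for 484 genes (5.32%), and below all 12 for 77 genes (0.847%).

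The split between higher and lower calls moved with the scaling. Higher genes were 65.3% of all calls with TMM, 81.0% with library totals only, 55.8% with RLE scaling and 54.1% with the deposited library totals, a setting chosen after seeing the data. With DESeq2, where the test differs as well as the scaling, they were 52.3%. The median of all genes tested was 0.29 with library totals only and -0.01 with RLE scaling, against 0.09 with TMM. Without Microglia 4 the higher share was 51.9%, without Astrocytes 4 it was 52.2%, and without Microglia 2 it was 55.0%. The count of lower genes was 609, 669, 652 and 630 without Input 2, 3, 4 and 5, and 1597 without Microglia 2. The 77 genes below all sorted libraries became 165, 137, 132 and 143 without Microglia 2, Microglia 4, Astrocytes 2 and Astrocytes 4.

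5 genes mark cell types that no gate selected. Cldn5 encodes claudin-5, the tight junction protein of brain endothelium (GRCm38.p6, chromosome 16 from 18776847 to 18778260). Cldn5 had 206, 206, 237 and 158 CPM in the Input libraries of animals 2, 3, 4 and 5. In the same order of animals it had 41.4, 17, 11.1 and 11 CPM in Microglia, 37.1, 87.7, 38.9 and 73.2 CPM in Astrocytes and 88, 129, 41.5 and 67.5 CPM in Neurons. Every Input library stood above every sorted one, and Microglia were lowest. The fold change of Cldn5 was 2.27 ± 0.25 (adjusted p = 1.55e-08), or 4.83-fold.

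Vtn encodes vitronectin, a matrix protein that pericytes make strongly (chromosome 11 from 78499091 to 78502324). Vtn had 215, 196, 195 and 166 CPM in Input, against 15.5, 5.09, 5.07 and 5.12 CPM in Microglia, 8.56, 36.1, 22 and 41.1 CPM in Astrocytes and 35.2, 36.2, 15.6 and 14.2 CPM in Neurons. The groups did not overlap, and the highest sorted library, Astrocytes 5, lay far under the lowest Input library. Vtn was higher in Input by 3.63 ± 0.25 (adjusted p = 1.35e-11), one of the 15 largest increases among genes with at least 50 CPM in Input and no overlap between libraries. The Vtn counts behind the sorted values were small, from 3 to 14 per library.

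Mbp encodes myelin basic protein, which compacts the myelin sheath (chromosome 18 from 82475146 to 82585637). Mbp had 715, 791, 580.1 and 895 CPM in Input, against 202, 76.4, 132 and 102 CPM in Microglia, 97, 268, 86.2 and 288 CPM in Astrocytes and 361, 517, 519 and 462 CPM in Neurons. Neurons came nearest to Input without reaching it. The fold change of Mbp was 1.78 ± 0.24 (adjusted p = 6.01e-07), a call that ended with the 12 sorted libraries fitted as 1 group (1.53).

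Ttr encodes transthyretin, the thyroid hormone carrier that the choroid plexus secretes (chromosome 18 from 20665250 to 20674324). Ttr had 9679.9, 4126, 8966 and 11938 CPM in Input, against 2069, 696, 466 and 593 CPM in Microglia, 1227, 2681, 828 and 2697 CPM in Astrocytes and 7656, 2841, 2856 and 6749 CPM in Neurons. Input 3 was low, and Neurons 2 and 5 stood above it, so that the groups overlapped. Ttr was higher by 2.07 ± 0.33 (adjusted p = 1.04e-05), and this call too ended with the sorted libraries as 1 group (1.73).

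Ccdc153 encodes a coiled-coil protein known as a marker of ependymal cells (chromosome 9 from 44240676 to 44247306). Ccdc153 had 84.2, 58.5, 84.4 and 68.2 CPM in Input, against 0, 0, 3.04 and 1.46 CPM in Microglia, 2.85, 0, 3.38 and 4.57 CPM in Astrocytes and 8.80, 46.5, 15.6 and 21.3 CPM in Neurons. It was at 0 in Microglia 2 and 3 and in Astrocytes 3, and 1 library, Neurons 3, held 18 of the 28 counts of Neurons. The fitted change of 3.82 ± 0.34 (adjusted p = 3.80e-10) was the largest of those 15 increases, and it rests on 5 counts in Microglia and 4 in Astrocytes.

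**Figure D1:**
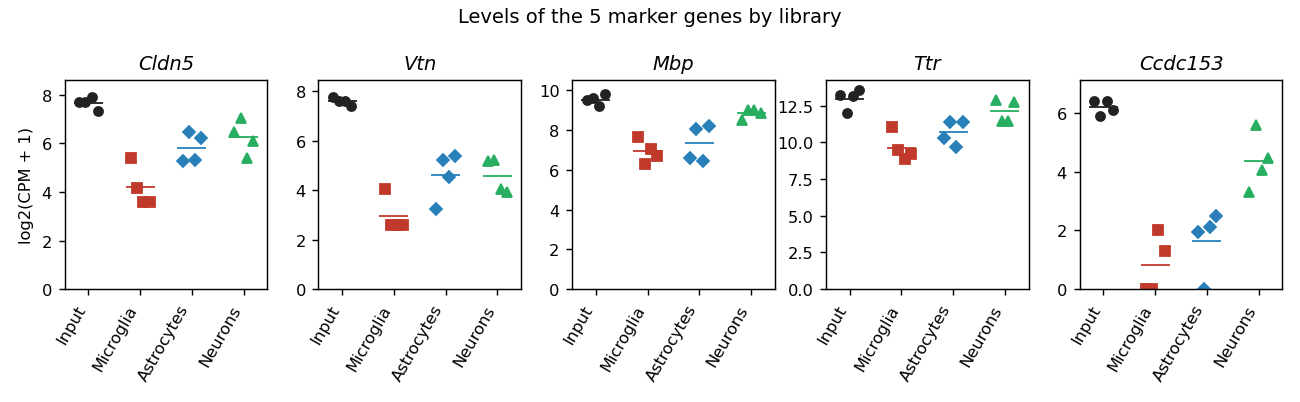
Levels of Cldn5, Vtn, Mbp, Ttr and Ccdc153 as log2(CPM + 1), 1 point per library, with a bar at the mean of the 4 libraries of each group. For Cldn5, Vtn, Mbp and Ccdc153 every Input point lies above every sorted point, while Ttr of Neurons 2 and 5 lies above that of Input 3.

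The genes of the 2 excluding gates followed the same order. Pecam1, which encodes CD31, had 134 to 174 CPM in the 4 Input libraries and 5.71 to 62.3 CPM in the 12 sorted libraries. Pecam1 was higher by 2.59 ± 0.24 (adjusted p = 5.00e-10). Ugt8a, whose enzyme makes the galactolipid that O1 binds, had 158 to 290.4 CPM in the 4 Input libraries and 6.79 to 62.3 CPM in the 12 sorted libraries. Ugt8a was higher by 3.01 ± 0.27 (adjusted p = 3.80e-10). The genes of the 3 selecting antigens showed no such order. Itgam, which encodes CD11b, stood at 216 ± 21.5 CPM in Input, against 1781 ± 496 CPM in Microglia, 193 ± 144 CPM in Astrocytes and 251 ± 158 CPM in Neurons. Slc1a2, which encodes EAAT2, stood at 3325 ± 1454 CPM in Input, against 699 ± 394 CPM in Microglia, 9839 ± 878 CPM in Astrocytes and 1666 ± 856 CPM in Neurons. Thy1 stood at 35.8 ± 9.14 CPM in Input, against 21.3 ± 20.7 CPM in Microglia, 65.1 ± 31.4 CPM in Astrocytes and 246 ± 35.4 CPM in Neurons. Itgam was lower in Input at -0.9997 ± 0.340 (adjusted p = 0.0232), and Thy1 was lower at -0.78 ± 0.30 (adjusted p = 0.0433). Slc1a2 stood at 0.57 ± 0.30 (adjusted p = 0.156). The calls of Itgam and Thy1 ended without any of Input 2, 4 or 5 (Itgam -0.92, -1.01 and -0.99, Thy1 -0.69, -0.67 and -0.79). That of Itgam also ended without Input 3 (-1.03), and that of Thy1 without Microglia 3 (-0.75), Astrocytes 5 (-0.68) or Neurons 3 or 4 (-0.77 and -0.76), and with animal as a block (-0.81). With the sorted libraries as 1 group both calls ended (Itgam -1.79, Thy1 -1.59).

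Vascular genes were higher in Input almost throughout. Of 38 endothelial genes tested out of 40 in the table, 35 were higher in Input and none was lower (against 21.2% higher, 11.3% lower and 32.5% called among all genes tested), and for 31 all Input libraries stood above all sorted ones (against 5.32% of all genes). Their median fold change was 2.54, against 0.09 for all genes. The list summed to 10884 to 12894 CPM in Input and 1497 to 4700.0 CPM in the 12 sorted libraries. As group means this was 15.5% of the Input mean in Microglia, 35.6% in Astrocytes and 29% in Neurons. In such bulk libraries, fewer cells of a type and less RNA per cell cannot be told apart. Depth differed as well. Flt1 of this list had 30 to 77 counts in each sorted library, while the totals of these libraries ranged 12.1-fold. How far depth shapes these percents, or the order of the sorted groups, was not tested.

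Flt1, a receptor for vascular endothelial growth factor, stood highest of the list in Input. It had 1347, 1066, 1477 and 1322 CPM in Input, against 165, 91.7, 54.7 and 46.8 CPM in Microglia, 99.9, 340.3, 103 and 352 CPM in Astrocytes and 264, 176, 343 and 170.5 CPM in Neurons. Every sorted library lay under every Input library, and the fold change was 3.02 ± 0.27 (adjusted p = 3.17e-10). Cdh5, the cadherin of endothelial junctions, was higher by 3.79 ± 0.31, at 103 ± 16.8 CPM in Input, against 7.09 ± 5.66 CPM in Microglia, 3.70 ± 2.48 CPM in Astrocytes and 21.1 ± 12.1 CPM in Neurons. The receptor Tek, which binds angiopoietins, was higher by 3.39 ± 0.30, and Mmrn2, a matrix protein of endothelium, by 3.53 ± 0.37. Car4, a carbonic anhydrase anchored to the capillary surface, was higher by 3.72 ± 0.31, and the surface antigen genes Ly6c1 and Ly6a by 3.39 ± 0.27 and 2.94 ± 0.25. Bsg, which encodes basigin, was higher by 2.51 ± 0.19 and Spock2, a proteoglycan gene, by 1.96 ± 0.21.

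3 endothelial genes passed no threshold, and they were chosen for mention after their values were seen. Mfsd2a encodes the lipid transporter of the blood-brain barrier and stood at 130.5 ± 22.7 CPM in Input, against 37.1 ± 25.7 CPM in Microglia, 613 ± 336 CPM in Astrocytes and 85.6 ± 62.3 CPM in Neurons. Its fold change was 0.17 ± 0.32 (adjusted p = 0.723), with Astrocytes above Input. Ets1, a transcription factor gene that lymphocytes also use, stood at 0.24 (adjusted p = 0.487), and limma voom called it (0.44). Slc7a5, a transporter of large neutral amino acids, stood at 0.47 (adjusted p = 0.137), called with library totals only (0.66).

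Transport across the blood-brain barrier gave a graded picture. Of 21 barrier transport genes tested, 17 were higher, none was lower and the median was 1.66, while 12 had groups that did not overlap. The shares of all genes tested were 21.2% higher, 11.3% lower and 5.32% above all sorted libraries. Slco1a4, an organic anion transporter, was higher by 3.08 ± 0.27. Slc2a1, the glucose transporter of the barrier, was higher by 1.78 ± 0.23, at 767 ± 108 CPM in Input, against 117 ± 57 CPM in Microglia, 439 ± 129 CPM in Astrocytes and 237 ± 108 CPM in Neurons. Abcb1a, the drug efflux pump P-glycoprotein, was higher by 2.34 ± 0.26, and Slc6a6, a taurine transporter, by 1.66 ± 0.24. Slco1c1, which carries thyroxine, was called at 1.08 ± 0.26 with Astrocytes above Input, at 326 ± 28.3 CPM in Input, against 50.2 ± 46.2 CPM in Microglia, 647 ± 27.7 CPM in Astrocytes and 152 ± 89.9 CPM in Neurons. The call of Slco1c1 ended with the sorted libraries as 1 group (0.21), as did that of Spock2 (1.55).

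Of 20 tight and adherens junction genes tested, 15 were higher and none was lower, against 21.2% and 11.3% of all genes. The median was 1.51. Lsr, a protein of tricellular junctions, was higher by 2.34 ± 0.26 and Cdh1, the epithelial cadherin, by 2.43 ± 0.30. Ctnnb1, which encodes beta-catenin and was the most abundant of the list by count, was higher by 0.78 ± 0.20 with no overlap between libraries. F11r, a junction molecule that leukocytes also carry, stood at 557 ± 77.9 CPM in Input, against 2104 ± 666 CPM in Microglia, 255 ± 122 CPM in Astrocytes and 338 ± 104 CPM in Neurons and at a fold change of -0.01 (adjusted p = 0.987). With the sorted libraries as 1 group the calls of Cdh1 (1.96) and Ctnnb1 (0.77) ended.

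All 9 pericyte genes tested out of 15 and all 5 smooth muscle genes tested out of 12 were higher, with medians of 2.28 and 2.50. Of all genes tested, 21.2% were higher. A gene could pass the filter on low counts through Input alone, so that these counts were in part set beforehand. The pericyte list summed to 1797 to 2083 CPM in Input and 116 to 786 CPM in the 12 sorted libraries. Rgs5, a regulator of G protein signalling in pericytes, had 1002 to 1203 CPM in the 4 Input libraries and 53.7 to 493 CPM in the 12 sorted libraries. Rgs5 was higher by 2.64 ± 0.24 (adjusted p = 3.87e-10). Cald1, the actin-binding caldesmon, was higher by 2.07 ± 0.26, and Notch3, the Notch receptor of mural cells, by 2.20 ± 0.30. Pdgfrb, the receptor through which vessels recruit pericytes, differed from these. It stood at 83 ± 4.84 CPM in Input, against 6.49 ± 4.48 CPM in Microglia, 146 ± 30.7 CPM in Astrocytes and 38 ± 9.43 CPM in Neurons, highest in Astrocytes, and was called higher in Input by 1.26 ± 0.23, a call that ended with the sorted libraries as 1 group (0.41), as did that of Notch3 (1.74). The contractile genes Acta2, Mylk and Myl9 of smooth muscle were higher by 2.50 ± 0.23, 2.23 ± 0.23 and 2.67 ± 0.32.

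Of 13 leptomeningeal fibroblast genes tested out of 20, 11 were higher and none was lower, against 21.2% and 11.3% of all genes. The median was 2.63. Ptgds, which makes prostaglandin D2, was higher by 2.72 ± 0.22 and stood at 999.7 ± 78.9 CPM in Input, against 91.8 ± 38.5 CPM in Microglia, 165 ± 91.2 CPM in Astrocytes and 259 ± 43 CPM in Neurons. Mgp, an inhibitor of matrix calcification, was higher by 2.63 ± 0.23, the lipocalin gene Apod by 2.71 ± 0.22 and the proteoglycan gene Dcn by 2.74 ± 0.26. Nov, a secreted matricellular protein, was higher by 3.55 ± 0.28 and Ltbp4, which binds latent TGF-beta, by 3.40 ± 0.28, both among the 15 largest increases. Igfbp2, which binds insulin-like growth factors, was an exception at 242 ± 42.9 CPM in Input, against 42.8 ± 21.3 CPM in Microglia, 938 ± 78.3 CPM in Astrocytes and 188 ± 114 CPM in Neurons, with a fold change of 0.39 ± 0.24 (adjusted p = 0.221), which limma voom called (0.62). Of 18 secreted regulators of BMP, IGF and Wnt signalling, 14 were higher and none was lower, against the same shares of all genes. Their median was 1.75.

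**Figure D2:**
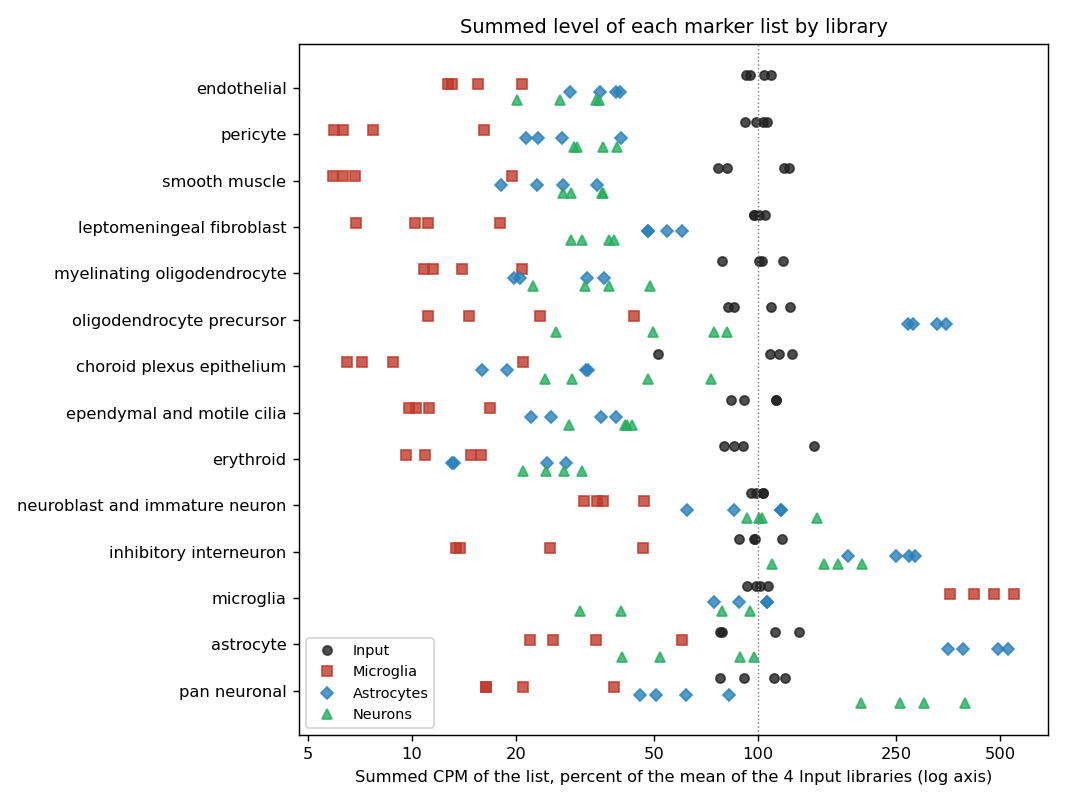
Summed CPM of 14 marker lists in each of the 16 libraries, as a percent of the mean of the 4 Input libraries on a log axis. The vascular, myelinating, choroid plexus, ciliary and erythroid lists lie lower in Microglia and Astrocytes than in every Input library, whereas the microglia, astrocyte and pan neuronal lists exceed Input in the group sorted for that type.

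Myelinating oligodendrocyte genes were higher without exception. All 27 tested out of 30 were called, 21 of them with no overlap between libraries, and the median was 2.69. Of all genes tested, 21.2% were higher and 5.32% stood above all sorted libraries. Their sum was 13801 to 20770.1 CPM in Input and 1910.2 to 8571 CPM in the 12 sorted libraries. As group means it was 14.3% of the Input mean in Microglia, 27.1% in Astrocytes and 34.9% in Neurons. As for the endothelial list, the part of depth in these percents was not tested. Cldn11, the claudin of the myelin sheath, was higher by 2.74 ± 0.28, Mog, a glycoprotein of its outer surface, by 2.75 ± 0.28, and Cnp, a myelin enzyme, by 1.82 ± 0.22. Qdpr, a pteridine reductase, was higher by 1.41 ± 0.19. Trf and Car2 were the smallest changes of those named. Trf, which encodes transferrin, stood at 581 ± 67.1 CPM in Input, against 539.7 ± 45.5 CPM in Microglia, 186 ± 58.2 CPM in Astrocytes and 159.6 ± 95.1 CPM in Neurons, and its change of 1.23 ± 0.22 was no longer called with the sorted libraries as 1 group (0.97). Car2, a carbonic anhydrase, stood at 666 ± 61.5 CPM in Input, against 111 ± 68 CPM in Microglia, 958 ± 161 CPM in Astrocytes and 284 ± 80.7 CPM in Neurons, higher by 1.14 ± 0.22 although Astrocytes exceeded Input, a call that likewise ended (0.57).

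Earlier stages of the lineage were mixed. Of 12 precursor genes tested out of 18, 10 were higher and none was lower, with a median of 1.16, and 2 had groups without overlap. Among all genes tested, 21.2% were higher, 11.3% were lower and 5.32% stood above all sorted libraries. Without animal 5, 6 of the 12 were higher. By summed CPM the precursor list stood at 23.3% of the Input mean in Microglia, 308% in Astrocytes and 57.8% in Neurons. The 2 without overlap were Pdgfra, the growth factor receptor of the precursors, and Sox10, a transcription factor of the whole lineage. Both were chosen after their values were seen. Pdgfra had 66, 77, 51 and 85 counts in the Input libraries and 3, 2 and 3 counts in all of Microglia, Astrocytes and Neurons. Its fitted fold depends on the prior count and is not given. Sox10 was higher by 3.12 ± 0.37, at 70.0 ± 9.73 CPM in Input, against 12.1 ± 10.7 CPM in Microglia, 3.42 ± 3.99 CPM in Astrocytes and 22 ± 13.3 CPM in Neurons.

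Olig1, the other lineage factor named here, had a different pattern. It had 215, 189, 169 and 205 CPM in Input, against 67.2, 15.3, 17.2 and 16.8 CPM in Microglia, 342, 258, 355 and 265 CPM in Astrocytes and 114, 51.7, 114 and 39.1 CPM in Neurons. All 4 Astrocytes libraries stood above all 4 Input libraries, and the call in favour of Input (1.29 ± 0.24) ended with the sorted libraries as 1 group (0.50). Ptprz1, a receptor phosphatase, stood at 865 ± 181 CPM in Input, against 144 ± 94 CPM in Microglia, 1718 ± 288 CPM in Astrocytes and 332 ± 148 CPM in Neurons, and its change of 1.03 ± 0.26 was lost in the same way (0.24). Cspg5, a brain proteoglycan gene, stood at 404 ± 173 CPM in Input, against 213 ± 138 CPM in Microglia, 3509 ± 378 CPM in Astrocytes and 497 ± 264 CPM in Neurons. Its fold change was -0.80 ± 0.33 (adjusted p = 0.0605). It was called lower in Input without Input 3 (-1.08), Microglia 2 (-0.76), Microglia 4 (-1.04), Astrocytes 2 (-0.89), Astrocytes 4 (-0.92) or Neurons 5 (-0.90).

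Of 11 genes of newly formed oligodendrocytes, 5 were higher and 2 were lower, against 21.2% and 11.3% of all genes. Enpp6, an enzyme of choline metabolism, was higher by 3.25 ± 0.46 and Bcas1 by 2.53 ± 0.27. Bmp4, a growth factor gene, was called higher as well, with 268 counts in all of Input, against 10 in Microglia, 2 in Astrocytes and 10 in Neurons, too few for a fitted fold. The other higher genes were Tmem2 (1.48) and Rras2 (0.91). The call of Rras2 ended without Input 2 (0.84), Microglia 4 (0.76), Astrocytes 2 (0.76) or Astrocytes 4 (0.75), and with the sorted libraries as 1 group (0.75). Itpr2, a calcium channel gene, was lower at -0.67 ± 0.23, a call that ended without Input 2, 3, 4 or 5 (-0.67, -0.56, -0.70 and -0.68) and with the sorted libraries as 1 group (-0.85). Frmd4a was lower at -1.31 ± 0.28, at 152 ± 31.9 CPM in Input, against 1057 ± 378 CPM in Microglia, 319.8 ± 48.2 CPM in Astrocytes and 166 ± 97.9 CPM in Neurons, and ended its call with the sorted libraries as 1 group (-1.76).

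Choroid plexus genes had a median of 2.96. Of 28 tested out of 30 in the table, 27 were higher and none was lower, and 13 had groups without overlap. Among all genes tested, 21.2% were higher, 11.3% were lower and 5.32% stood above all sorted libraries. The list summed to 9115 to 22317 CPM in Input and 1152 to 13042 CPM in the 12 sorted libraries. As group means it was 10.9% of the Input mean in Microglia, 24.7% in Astrocytes and 43.7% in Neurons. The part of depth in these percents and in their order was not tested. Sostdc1, a secreted BMP and Wnt antagonist, was higher by 3.43 ± 0.31, at 263 ± 84 CPM in Input, against 13.1 ± 9.16 CPM in Microglia, 33.3 ± 21.1 CPM in Astrocytes and 61.2 ± 48.3 CPM in Neurons. Clic6, a chloride channel family member, was higher by 3.64 ± 0.30, Slc26a7, an anion exchanger, by 3.55 ± 0.36, and Prlr, the prolactin receptor, by 3.22 ± 0.30. Enpp2, which encodes autotaxin and is also on the oligodendrocyte list, had 2957 to 7576 CPM in the 4 Input libraries and 249 to 3608 CPM in the 12 sorted libraries. Enpp2 was higher by 2.74 ± 0.33, and its groups overlapped.

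Htr2c, the serotonin receptor of the plexus, was higher by 3.01 ± 0.32 and Otx2, its transcription factor, by 2.54 ± 0.28. Slc12a2, the cotransporter that drives fluid secretion, stood at 399 ± 77.5 CPM in Input, against 235 ± 15.6 CPM in Microglia, 105 ± 32.9 CPM in Astrocytes and 109 ± 46.2 CPM in Neurons and was higher by 1.56 ± 0.20. Input 3 had the lowest sum of the Input libraries, with 9115 CPM, and its part in the spread was not tested.

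Ciliary genes of the ependyma were higher as well. Of 68 listed genes in the table, 26 passed the filter on low counts. Of these, 23 were higher, none was lower and 13 had groups without overlap, with a median of 2.68. Among all genes tested, 21.2% were higher, 11.3% were lower and 5.32% stood above all sorted libraries. The 42 that did not pass were not tested. A gene could pass the filter through Input alone. For such members the direction was largely set beforehand, so that the count of 23 is no test of the list. Tmem212, an ependymal membrane protein, was higher by 3.10 ± 0.26, at 115 ± 25 CPM in Input, against 7.68 ± 2.92 CPM in Microglia, 9.83 ± 5.32 CPM in Astrocytes and 29.2 ± 9.99 CPM in Neurons. Tm4sf1, which endothelium also makes, was higher by 3.07 ± 0.27 and Dynlrb2, a dynein light chain, by 2.50 ± 0.31. Foxj1, the master transcription factor of motile cilia, stood at 110.4 ± 11.7 CPM in Input, against 9.65 ± 7.93 CPM in Microglia, 62.6 ± 43.9 CPM in Astrocytes and 65.9 ± 57.7 CPM in Neurons. Its change of 1.86 ± 0.35 was lost with the sorted libraries as 1 group (1.36).

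Promoters of ciliary genes are known to carry the X-box, a site of RFX transcription factors. RefSeq promoter windows of 300 bases on GRCm38.p6, 250 before and 50 after a start site, were searched on both strands for an X-box of 14 letters, GTNNCC and GNNAC with any 3 bases between them, where matches on the 2 strands can overlap. Of the 55 ciliary genes with a window, 22 held a match (40.0%), against 1422 of all 27025 genes (5.26%) and 442 of the 7016 genes tested (6.30%). Among other lists, 3 of 22 choroid plexus genes, 2 of 26 endothelial genes and 1 of 18 myelinating oligodendrocyte genes held one. Of the 8 ciliary genes that held a match and were tested, 7 were higher in Input. This was near the share of the whole list, with 23 of 26 tested genes higher, so that a match did not set them apart. A match is a string of letters and not a known binding site. 4 of these promoters are printed because their genes were higher in Input and their match starts shortly before the start site, at -23 for Cfap206, -6 for Rsph9, -15 for Tekt1 and -12 for Enkur. All 4 genes lie on the minus strand. Each window is written 5′ to 3′ along the gene, with the match in capitals, and spans chr4:34730157-34730456, chr17:46144151-46144450, chr11:72361833-72362132 and chr2:21205316-21205615.
Cfap206: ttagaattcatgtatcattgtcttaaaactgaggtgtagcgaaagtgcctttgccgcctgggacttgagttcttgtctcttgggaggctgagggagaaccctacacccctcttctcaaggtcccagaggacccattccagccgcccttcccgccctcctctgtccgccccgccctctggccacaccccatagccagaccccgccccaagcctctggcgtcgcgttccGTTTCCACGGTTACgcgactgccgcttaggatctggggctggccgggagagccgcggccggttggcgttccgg
Rsph9: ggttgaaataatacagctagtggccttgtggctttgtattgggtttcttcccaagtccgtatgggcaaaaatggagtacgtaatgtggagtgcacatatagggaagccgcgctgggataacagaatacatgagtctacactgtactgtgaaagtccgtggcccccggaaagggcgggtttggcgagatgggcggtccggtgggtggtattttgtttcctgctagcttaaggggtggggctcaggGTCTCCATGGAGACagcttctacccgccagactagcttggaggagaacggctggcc
Tekt1: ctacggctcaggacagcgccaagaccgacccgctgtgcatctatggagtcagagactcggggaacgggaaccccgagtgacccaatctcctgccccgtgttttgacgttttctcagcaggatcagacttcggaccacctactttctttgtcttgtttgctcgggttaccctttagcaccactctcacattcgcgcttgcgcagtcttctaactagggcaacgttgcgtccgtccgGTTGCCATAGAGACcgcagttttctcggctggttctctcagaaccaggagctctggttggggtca
Enkur: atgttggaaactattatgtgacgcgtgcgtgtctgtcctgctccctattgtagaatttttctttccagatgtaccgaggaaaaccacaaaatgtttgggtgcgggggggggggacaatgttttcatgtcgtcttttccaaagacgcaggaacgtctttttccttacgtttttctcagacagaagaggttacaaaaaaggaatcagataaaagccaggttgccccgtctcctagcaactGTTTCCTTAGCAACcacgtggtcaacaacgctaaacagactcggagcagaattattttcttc

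The 4 genes, of which Cfap206, Tekt1 and Enkur were chosen after their values were seen, differed in how far the sorted groups fell below Input. Cfap206, a protein of the cilium's axoneme, had 26.1 to 46.3 CPM in the 4 Input libraries and 0 to 17.8 CPM in the 12 sorted libraries. Its groups did not overlap, and its fold change was 2.66 ± 0.35. Rsph9, a radial spoke protein, stood at 62.4 ± 6.50 CPM in Input, against 4.94 ± 5.23 CPM in Microglia, 47.5 ± 31.4 CPM in Astrocytes and 43.2 ± 22.6 CPM in Neurons, with a fold change of 1.47 ± 0.31. Tekt1, a filament protein of ciliary microtubules, stood at 25.6 ± 7.08 CPM in Input, against 3.02 ± 4.90 CPM in Microglia, 6.79 ± 8.85 CPM in Astrocytes and 16.9 ± 13.5 CPM in Neurons, with a fold change of 1.99 ± 0.45. Enkur, a calmodulin-binding ciliary protein, stood at 32.1 ± 6.55 CPM in Input, against 1.49 ± 1.72 CPM in Microglia, 7.84 ± 6.39 CPM in Astrocytes and 17.1 ± 8.07 CPM in Neurons, with a fold change of 2.35 ± 0.38. In each of the 4, Microglia held the lowest mean. The calls of Rsph9 (1.02), Tekt1 (1.56) and Enkur (2.11) ended with the sorted libraries as 1 group.

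**Figure D3:**
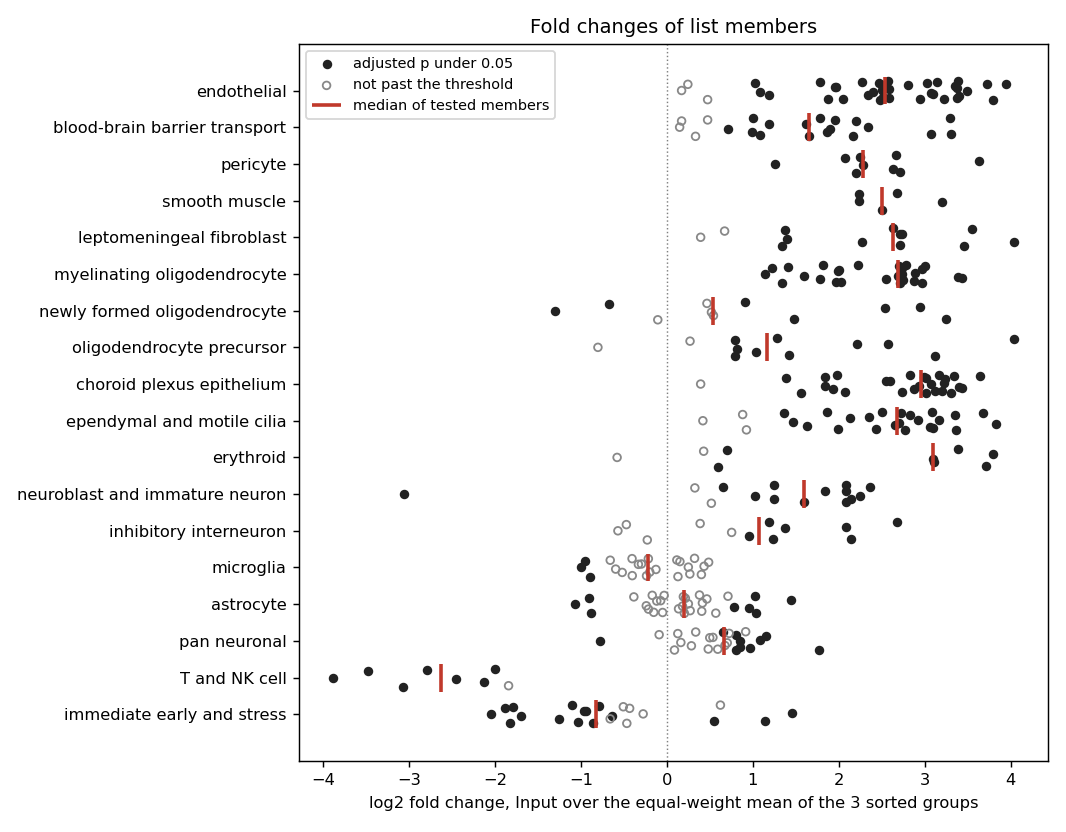
Fold change of each tested member of 18 lists, as log2 of Input over the equal-weight mean of the 3 sorted groups. Filled points passed an adjusted p of 0.05, open points did not, and red bars mark list medians, which lie at 2.54 for endothelial, 2.96 for choroid plexus and -2.62 for T and NK cell genes.

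Red cell transcripts had the highest median of all lists with more than 1 gene tested, at 3.10. Of 9 erythroid genes tested, 7 were higher and none was lower, against 21.2% and 11.3% of all genes. Without Input 3, 4 of 8 were higher. The alpha-globin genes Hba-a2 and Hba-a1 were higher by 3.79 ± 0.31 and 3.71 ± 0.29, and the beta-globin genes Hbb-bs and Hbb-bt by 3.11 ± 0.29 and 3.10 ± 0.26. The 2 genes of each pair are near-identical, and how reads were split between them is uncertain. Hbb-bs had 2567, 1375, 1529 and 1449.6 CPM in Input, against 217, 112, 87.2 and 65.8 CPM in Microglia, 108, 382, 118 and 375 CPM in Astrocytes and 414, 168, 483 and 174 CPM in Neurons. Input 2 was highest, and no library overlapped. Alas2, the first enzyme of heme synthesis in red cells, was higher by 3.39 ± 0.45.

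Immune cells of the blood showed no such excess. None of 14 neutrophil and monocyte genes was higher and 2 were lower, with a median of -0.45, a share of lower genes near the 11.3% of all genes. Without animal 5, 1 was higher and none was lower. By summed CPM this list stood at 525% of the Input mean in Microglia, 51.8% in Astrocytes and 81.9% in Neurons. The lower genes were Ly6c2, a surface antigen of monocytes, at -1.19 ± 0.46, and Ccr2, their chemokine receptor, at -1.04 ± 0.30. Both calls ended with the sorted libraries as 1 group (-1.88 and -1.44). That of Ly6c2 ended without Input 2, 3 or 5, Microglia 4, Astrocytes 3 or 5, or Neurons 2 or 4, at -1.30 to -0.92, and 5 genes of the list were lower without Microglia 2 or Astrocytes 4. S100a8, a neutrophil alarmin, stood at 584 ± 298 CPM in Input, against 2094 ± 1445 CPM in Microglia, 226 ± 142 CPM in Astrocytes and 247 ± 123 CPM in Neurons. Among T and NK cell genes, 7 of 8 tested out of 13 were lower, against 11.3% of all genes. A gene could pass the filter on low counts through Neurons alone, so that this count was in part set beforehand. The median was -2.62. It was -2.93 with 2 members that had 3 or fewer counts in a group set to a floor of 3 counts. The list summed to 23.7 CPM in Input, against 1382 CPM in Neurons. Mouse T cells also carry Thy1, the antigen of the Neurons gate, and the part of such cells in the Neurons values was not tested. Ms4a4b stood at 10.8 ± 4.83 CPM in Input, against 28.5 ± 22.4 CPM in Microglia, 51.4 ± 30.3 CPM in Astrocytes and 745 ± 359 CPM in Neurons. Its fold change was -3.07 ± 0.40. Lck, the T cell kinase, and Cd3d, a chain of the T cell receptor complex, were lower at -2.12 ± 0.51 and -2.46 ± 0.58. Their calls ended with the sorted libraries as 1 group (-3.73 and -3.80), and Lck also with Input thinned to the mean sorted total (-1.37).

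Some neuronal transcripts were higher in Input although neurons were among the sorted cells. Of 15 neuroblast and immature neuron genes tested out of 18, 12 were higher and 1 was lower, against 21.2% and 11.3% of all genes. The median was 1.59. In summed CPM the list was not lower in every sorted group. It stood at 37.0% of the Input mean in Microglia, 95.1% in Astrocytes and 111% in Neurons. Tubb2b, the lower gene, held 909 of the 1668 CPM in Astrocytes. Dcx, the microtubule protein of migrating neuroblasts, had 71.5, 65.3, 79.1 and 64 CPM in Input, against 15.5, 1.70, 8.11 and 5.12 CPM in Microglia, 11.4, 15.5, 3.38 and 27.4 CPM in Astrocytes and 35.2, 49.1, 51.9 and 32 CPM in Neurons. Every Input library exceeded every sorted one, Neurons came nearest, and the fold change was 2.24 ± 0.29 (adjusted p = 4.20e-07). Cd24a, a surface protein of neuroblasts and ependyma, was higher by 2.36 ± 0.28, the homeobox gene Dlx2 by 2.14 ± 0.31 and Igfbpl1 by 2.08 ± 0.32. Of these, Igfbpl1 averaged 53.5 CPM in Input and 52.3 CPM in Neurons. Meis2, a homeobox gene, was higher by 1.02 ± 0.26 with Astrocytes above Input, and Sox4 stood at 0.33 ± 0.19 (adjusted p = 0.206), called with library totals only (0.53). With the sorted libraries as 1 group, the calls of Dcx (1.84), Dlx2 (1.59), Igfbpl1 (1.36) and Meis2 (0.43) ended. Dcx, Cd24a, Dlx2 and Igfbpl1 were chosen after their values were seen.

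Npy, which encodes neuropeptide Y, is on the interneuron list. It had 92.6, 113, 84.4 and 102 CPM in Input, against 15.5, 6.79, 3.04 and 5.12 CPM in Microglia, 25.7, 25.8, 20.3 and 32 CPM in Astrocytes and 35.2, 25.8, 31.2 and 14.2 CPM in Neurons. No sorted library reached an Input library, Neurons and Astrocytes lay in the same range, and the fold change was 2.68 ± 0.25 (adjusted p = 1.05e-09). Npy too was chosen after its values were seen. Of 12 interneuron genes, 7 were higher and none was lower, against 21.2% and 11.3% of all genes. Npy alone had groups without overlap, and without animal 5 the higher genes were 4. Among all genes tested, 5.32% stood above all sorted libraries. By summed CPM the interneuron list stood at 24.7% of the Input mean in Microglia, 247% in Astrocytes and 158% in Neurons. Gad1, which makes GABA, stood at 83.8 ± 21.7 CPM in Input, against 13.8 ± 4.96 CPM in Microglia, 29.1 ± 8.11 CPM in Astrocytes and 148 ± 52.9 CPM in Neurons. Its change of 1.19 ± 0.25 was lost with the sorted libraries as 1 group (0.48).

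Other neuronal classes were read from short lists. Of 10 cerebellar granule neuron genes, 8 were higher and none was lower, against 21.2% and 11.3% of all genes. By summed CPM this list stood at 24.2% of the Input mean in Microglia, 100.0% in Astrocytes and 172% in Neurons. Zic1, a zinc finger factor, stood at 358 ± 28.5 CPM in Input, against 54.7 ± 27.6 CPM in Microglia, 235 ± 39.5 CPM in Astrocytes and 534 ± 196 CPM in Neurons and was higher by 0.97 ± 0.22. Etv1 was higher by 0.95 ± 0.22 with no overlap, at 118 ± 6.70 CPM in Input, against 78.4 ± 18.3 CPM in Microglia, 54.1 ± 5.90 CPM in Astrocytes and 47.5 ± 24.8 CPM in Neurons, and lost its call when all libraries were thinned to the smallest total (0.91). Ddc, the decarboxylase of monoamine neurons, was higher by 2.67 ± 0.30 and stood at 81.5 ± 4.30 CPM in Input, against 7.15 ± 5.67 CPM in Microglia, 13.1 ± 10.2 CPM in Astrocytes and 36.6 ± 17.2 CPM in Neurons, without overlap. Ppp1r1b, which encodes DARPP-32 of striatal neurons, was higher by 2.34 ± 0.24, at 181 ± 33.5 CPM in Input, against 11.1 ± 8.25 CPM in Microglia, 71 ± 18.2 CPM in Astrocytes and 75.5 ± 23.6 CPM in Neurons, and lost its call with the sorted libraries as 1 group (1.82), as did Zic1 (0.39). Foxp1, the other striatal gene higher of 6 tested, stood at 0.79 ± 0.21 and lost its call in the same fit (0.74). Adora2a, the adenosine receptor of the same striatal neurons, was lower at -1.27 ± 0.45. It stood at 6.57 ± 1.42 CPM in Input, against 3.67 ± 3.92 CPM in Microglia, 21.8 ± 5.44 CPM in Astrocytes and 77.2 ± 26.7 CPM in Neurons, and its call ended without any 1 of the 4 Input libraries (from -1.38 to -1.14) or without Microglia 3 (-0.80), and with the sorted libraries as 1 group (-2.24).

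Of 24 pan neuronal genes, 9 were higher and 1, Thy1, was lower, against 21.2% and 11.3% of all genes. The median was 0.66. The higher genes were 4 without Input 3, Input 5, Microglia 4, Astrocytes 2 or Astrocytes 4, and 5 without animal 5. The list summed to 23% of the Input mean in Microglia, 60.2% in Astrocytes and 288% in Neurons. Syt1, the calcium sensor of vesicle release, was higher by 1.16 ± 0.28 and Map2, a dendritic microtubule protein, by 0.96 ± 0.21. Syt1 averaged 232 ± 48.1 CPM in Input and 559 ± 176 CPM in Neurons, and Map2 averaged 336 ± 81.6 CPM in Input and 405 ± 73.7 CPM in Neurons, the highest group for both. Their calls ended with the sorted libraries as 1 group (0.08 and 0.36), and that of Syt1 with all libraries thinned (0.61).

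The lists of the sorted glial types stood high in the group sorted for them and had medians near 0 in the contrast. The microglia list summed to 452% of the Input mean in Microglia, 93.6% in Astrocytes and 61% in Neurons. Of its 23 genes, none was higher and 3 were lower (against 21.2% higher and 11.3% lower among all genes tested), so that the share of lower genes was near that of all genes. The median was -0.22, and without Astrocytes 4 the lower genes were 5. Cx3cr1, the fractalkine receptor, stood at 3076 ± 319 CPM in Input, against 12064 ± 1492 CPM in Microglia, 1260.4 ± 734 CPM in Astrocytes and 1522 ± 922 CPM in Neurons. Its fold change was 0.12 ± 0.32 (adjusted p = 0.810). The lower genes were Itgam, Siglech, a sialic acid receptor, at -0.89 ± 0.31, and Cst3, which encodes cystatin C, at -0.95 ± 0.30. The call of Siglech ended without Input 2, 3, 4 or 5 or Neurons 4 (from -0.92 to -0.73), and that of Cst3 without Input 2 (-0.80) or Input 4 (-0.92). Both ended with the sorted libraries as 1 group (-1.89 and -1.43).

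The astrocyte list summed to 35.4% of the Input mean in Microglia, 441% in Astrocytes and 69.6% in Neurons. Of its 30 genes, 5 were higher and 3 were lower, both below the shares of all genes tested (21.2% and 11.3%). The median was 0.20, and without Input 3 or Microglia 4 the higher genes were 3. Aldoc, a glycolytic enzyme, stood at 1923 ± 721 CPM in Input, against 472 ± 356 CPM in Microglia, 8342 ± 1961 CPM in Astrocytes and 1192 ± 469 CPM in Neurons. Its fold change was 0.21 ± 0.31 (adjusted p = 0.639). Gfap, an intermediate filament gene, was higher by 1.44 ± 0.37, the water channel gene Aqp4 by 1.03 ± 0.25 and the transcription factor gene Sox9 by 1.03 ± 0.26. Slc4a4, a bicarbonate cotransporter, was higher by 0.95 ± 0.31 and Clu, which encodes clusterin, by 0.78 ± 0.26. In all 5 the Astrocytes mean was above the Input mean, and with the sorted libraries as 1 group each call ended (0.67, 0.23, 0.13, 0.11 and -0.18). The calls of Slc4a4 and Clu also ended without Input 3 (0.84 and 0.73) or Microglia 4 (0.73 and 0.54), and that of Clu without Input 5 (0.67) or Astrocytes 4 (0.66). Mt2, a metallothionein gene with close paralogs, was lower at -1.07 ± 0.30, at 603 ± 139 CPM in Input, against 384 ± 269 CPM in Microglia, 6867 ± 932 CPM in Astrocytes and 802 ± 293 CPM in Neurons. Mt3, its brain paralog, was lower at -0.88 ± 0.29. Both calls ended with the sorted libraries as 1 group (-2.15 and -2.44). That of Mt3 ended without Input 2, 4 or 5 or Microglia 5 (-0.76, -0.89, -0.82 and -0.78).

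Input had the lowest mean of the 4 groups for 796 of the 1025 lower genes, but its 4 libraries lay below all 12 sorted libraries for 77 of them. Of these 77 genes, 1 was on any list. That gene was Tubb2b, a beta-tubulin of young neurons with near-identical paralogs (chromosome 13 from 34126748 to 34130466). Tubb2b had 19.8, 28.5, 31.6 and 23.9 CPM in Input, against 103, 59.4, 53.7 and 49 CPM in Microglia, 1370.0, 433, 1285 and 549 CPM in Astrocytes and 167, 214, 259.6 and 81.7 CPM in Neurons. Its fold change of -3.06 ± 0.33 ran against the 12 neuroblast genes that were higher.

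Among genes averaging at least 50 CPM over the sorted groups, the largest decrease without overlap was that of Lars2, the mitochondrial leucyl-tRNA synthetase (chromosome 9 from 123366927 to 123462666). Lars2 had 19.8, 12, 16.9 and 8.53 CPM in Input, against 207, 124, 162 and 65.1 CPM in Microglia, 599, 155, 304 and 174 CPM in Astrocytes and 343, 309.9, 259.6 and 781 CPM in Neurons. All 3 sorted groups were high, Neurons 5 most, and the fold change was -4.19 ± 0.40 (adjusted p = 1.29e-09). Bax, which opens the outer mitochondrial membrane in apoptosis, had 6.31, 11.3, 10.5 and 9.38 CPM in Input (chromosome 7 from 45461697 to 45466898). It had 72.4, 109, 85.1 and 102 CPM in Microglia, 111, 113, 120.0 and 109.7 CPM in Astrocytes and 44, 132, 88.3 and 153 CPM in Neurons. The sorted groups stood close together, and Bax was lower at -3.47 ± 0.29 (adjusted p = 9.17e-11).

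Below that limit, Grcc10 was lower at -4.34 ± 0.53 and Gemin6 at -3.21 ± 0.46, both also without overlap and named after their values were seen. Another 9 of the 12 largest decreases above the limit were spread over several functions. Lamtor2, a lysosomal scaffold of nutrient signalling, was lower at -3.23 ± 0.26, and Raly, an RNA-binding protein, at -3.21 ± 0.36. Suv420h2, a histone methyltransferase gene, was lower at -2.86 ± 0.39, Fam160b2 at -2.66 ± 0.27 and Supt4a, a transcription elongation factor, at -2.14 ± 0.40. Son, a protein of nuclear speckles, was lower at -2.05 ± 0.28, at 381 ± 45.7 CPM in Input, against 1871 ± 744 CPM in Microglia, 1698 ± 568 CPM in Astrocytes and 1226 ± 138 CPM in Neurons. Dnajc7, a co-chaperone, was lower at -2.08 ± 0.26 and Arl6ip5 at -2.33 ± 0.24. Clic1, a chloride channel family member, was lower at -2.42 ± 0.28, and its Microglia mean of 862 CPM was the highest of the 3 sorted groups.

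**Figure D4:**
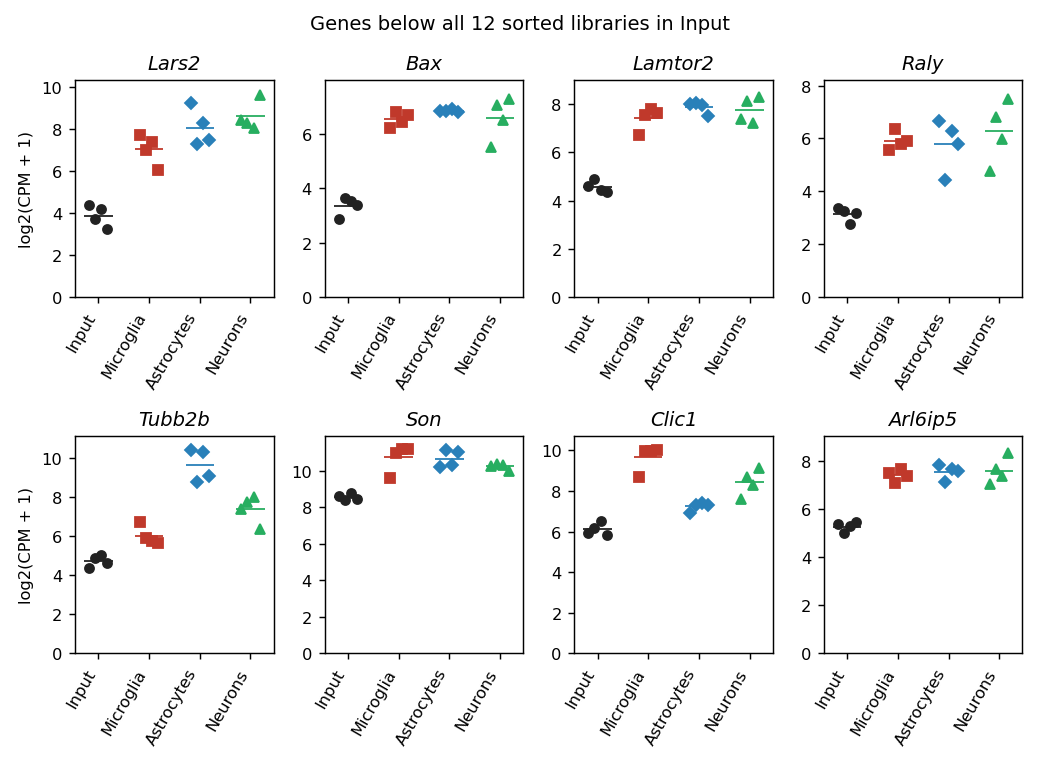
Levels of 8 of the 12 genes with the largest decreases, among those that average at least 50 CPM over the sorted groups and do not overlap, as log2(CPM + 1), 1 point per library, with a bar at the mean of each group. Every Input point lies below every sorted point, and in Bax, Lamtor2 and Arl6ip5 the 3 sorted groups lie at similar levels.

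Genes of early response and stress moved mostly the same way. Of 22 tested, 13 were lower and 3 were higher in Input, against 11.3% and 21.2% of all genes. The median was -0.83. The lower genes were 7 of 23 tested without Input 2 or Input 3, and no gene of the list had groups without overlap. Junb, an AP-1 subunit, had 135, 113, 105 and 141 CPM in Input, against 1138, 1868, 1419 and 1609.5 CPM in Microglia, 79.9, 227, 52.4 and 210.3 CPM in Astrocytes and 449, 619.8, 519 and 1030.1 CPM in Neurons. Microglia were highest and Astrocytes overlapped Input, and the fold change was -2.05 ± 0.30 (adjusted p = 3.12e-06). Zfp36, which destabilises cytokine mRNA, stood at 151 ± 37.8 CPM in Input, against 2453 ± 1268 CPM in Microglia, 205 ± 111 CPM in Astrocytes and 298 ± 113 CPM in Neurons, lower at -1.79 ± 0.33. Rhob, a stress-induced GTPase, was lower at -0.94 ± 0.23, and Ier5 stood at -0.43 ± 0.21 (adjusted p = 0.125), called without Microglia 2 (-0.54), Microglia 4 (-0.62) or Astrocytes 4 (-0.59). The list summed to 460.3% of the Input mean in Microglia, 84.4% in Astrocytes and 144% in Neurons. The higher genes were Klf4 and Klf2, flow-responsive factors of endothelium, at 1.45 ± 0.27 and 1.14 ± 0.26, and Hsp90aa1, a chaperone gene, at 0.54 ± 0.19. The call of Hsp90aa1 ended without Input 2 (0.42), Input 4 (0.51), Microglia 2 (0.40), Microglia 4 (0.40), Astrocytes 2 (0.45) or Astrocytes 4 (0.41). With the sorted libraries as 1 group, the calls of Junb (-2.64), Zfp36 (-2.71), Rhob (-1.39), Klf4 (1.15), Klf2 (0.86) and Hsp90aa1 (0.48) ended.

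Some transcripts of cells that were not sorted for had counts in each of the 12 sorted libraries, and for those given here, chosen after their values were seen, the counts varied less than the depth. The 4 globin genes together had 64 to 136 counts in each of the 12 sorted libraries, a 2.13-fold range, while the totals of these libraries ranged 12.1-fold. They had 4810 to 9900 counts in the Input libraries. Flt1 had 30 to 77 counts in the sorted libraries and 2800 to 3200 in Input. Enpp2 had 190 to 410 counts in the sorted libraries, and Ttr 400 to 1900. A rarer transcript, Ccdc153, had 0 to 18 counts in the sorted libraries and was at 0 in 3 of them. On the CPM scale Flt1 stood nearer to Input in the shallowest sorted library than in the deepest, Neurons 2 with 116761 counts in all and Microglia 5 with 1413564, at 264 and 46.8 CPM. The source of these counts was not tested.

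**Figure D5:**
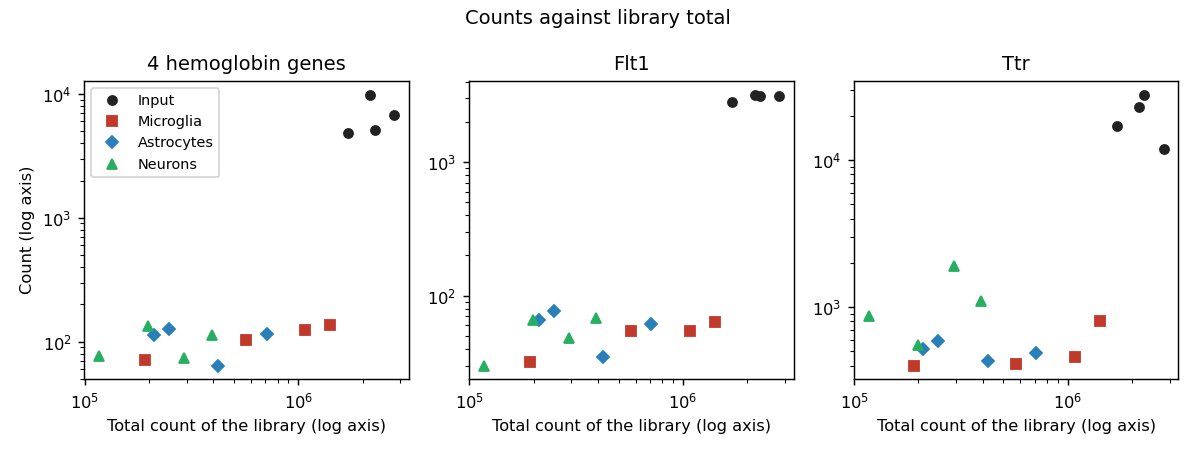
Counts of 4 globin genes together, of Flt1 and of Ttr against the total count of each library, both axes logarithmic. The globin counts of the 12 sorted libraries stay between 64 and 136 while their totals run from 116761 to 1413564, and the 4 Input libraries lie at 4810 to 9900.

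Growth hormone RNA stood out in 1 animal. Gh had 105, 82.5, 105 and 2388 CPM in Input, against 827, 306, 162 and 388 CPM in Microglia, 314, 1083, 355 and 1143 CPM in Astrocytes and 1056, 491, 1246 and 67487 CPM in Neurons. In animal 5 both Input and Neurons were far above the other animals, while in animals 2 to 4 the counts of Gh were 110 to 250 in every library. The fold change of -1.37 ± 0.88 passed no threshold (adjusted p = 0.244), and it was called lower without animal 5 (-2.62), without Input 5 (-4.13) and with animal as a block (-2.42). Of 6 pituitary genes tested, none was called. Without animal 5, 3 of 4 pituitary genes tested were lower. The genes higher without animal 5 were 35 of 38 tested in the endothelial list, 28 of 28 in the myelinating oligodendrocyte list, 27 of 28 in the choroid plexus list and 24 of 26 in the ciliary list.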

How the data were processed

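RNA of FACS-sorted cells and of the unsorted suspension was sequenced from its 3' ends with a kit that adds molecular identifiers, as single reads of 65 bases, per the labels' protocols. Per the submitters' processing notes, the tools were STAR, edgeR, and featureCounts and Subread (1.6.2), and the build was GRCm38.p6. The authors deposited a table of counts per gene, a table of normalized signal, and per library a total and a normalization factor, which is a ratio. How the signal was scaled is not given in the sources used here. The deposited counts of 100 or more hold 2 significant digits.

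The 22058 genes of the table were filtered with edgeR's filterByExpr by group, which left 9091. A gene can pass this filter through a single high group. Counts of calls among the tested members of a list are therefore not independent of the filter. Library sizes were scaled by TMM, and edgeR 4.0.16 (R 4.3.3) fitted the 4 groups with glmQLFit. The contrast was Input minus the equal-weight mean of the 3 sorted groups, with a threshold of 0.05 on the Benjamini-Hochberg adjusted p. On simulated counts with these library sizes (8488 genes), 59.8% of genes changed 2-fold and 94.7% of those changed 4-fold were called. Of unchanged genes, 0.08% were called. Whether these rates hold for the measured counts, where the share of higher calls moved with the scaling, was not tested. Alternatives used DESeq2 1.42.0, limma 3.58.1, other scalings and filters, thinning, animal as a block and each library left out. Totals ran from 116761 to 2811080 counts, and p-values are limited by 4 libraries per group.

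Of 701 entries in 35 gene lists, 682 matched the table, and the others were not analysed here. The comparison, the lists and the named genes were chosen with earlier results of these data known. Named were the 5 markers, the genes of the 5 sort antigens, the 15 largest increases and 12 largest decreases with at least 50 CPM and no overlap between Input and sorted libraries, and the 4 list members (8 for the longer lists) with the highest mean CPM, leaving out predicted genes. Members that moved against their list could be named as well. A few genes under this rule are not reported here. The list medians given are those of the fitted fold changes. As a check, medians were also taken with a floor of 3 counts for groups with 3 or fewer counts. Such members were on 16 lists, and the largest shift of a median was 0.3081, that of the T and NK cell list.

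The labels tie each number to 1 animal, so that the 4 groups are paired. Deviations from group means correlated between -0.0976 and 0.1127 for 24 pairs of libraries of the same animal, and between -0.1202 and 0.157 for 72 pairs of different animals. Promoter windows came from RefSeq on GRCm38.p6.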

Additional observations from a re-analysis of the deposited data

Results flagged for a closer look

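In 20 of 200 tests of the 4 libraries of a group, 1 library stood apart from the other 3 by Dixon's criterion, and chance gives about 1 in 20. No explanation was tested.

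On the CPM scale, Microglia 2 stood above the other Microglia libraries in 7 of them. Its list sums were 139.6 CPM for smooth muscle (others 42.6 to 49.2 CPM), 3734 CPM for choroid plexus epithelium (1152 to 1564 CPM), 2751 CPM for blood-brain barrier transport (1749 to 1827 CPM) and 610.3 CPM for secreted regulators (295 to 341 CPM). Its levels were 15.5 CPM for Vtn (5.07 to 5.12 CPM), 2069 CPM for Ttr (466 to 696 CPM) and 67.2 CPM for Olig1 (15.3 to 17.2 CPM). The counts of these genes in Microglia 2 did not exceed the others. They were 3 for Vtn (3, 5 and 7 in Microglia 3, 4 and 5), 400 for Ttr (410, 460 and 810) and 13 for Olig1 (9, 17 and 23). Microglia 2 had a total of 191236 counts, against 570180 to 1413564 in the others.

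Animal 5 stood apart in 7 as well. The pituitary list summed to 3587 CPM in Input 5, against 152 to 183 CPM in the other Input libraries, and to 89012 CPM in Neurons 5, against 754 to 1547 CPM. Gh had 2388 CPM in Input 5, against 82.5 to 105 CPM, and 67487 CPM in Neurons 5, against 491 to 1246 CPM. The hypothalamic neuropeptide list summed to 572.2 CPM in Input 5, against 17.7 to 31.3 CPM, and to 348.1 CPM in Neurons 5, against 52.8 to 85.2 CPM. Lars2 had 781.4 CPM in Neurons 5, against 260 to 343 CPM in the other Neurons libraries.

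Input 2 stood above the other Input libraries in red cell transcripts. The erythroid list summed to 4444 CPM there, against 2444 to 2769 CPM, and Hbb-bs had 2567 CPM, against 1375 to 1529 CPM. Microglia 4 had 13904 CPM of neutrophil and monocyte genes, against 3574 to 4716 CPM, and 75.0 CPM of monoaminergic and cholinergic genes, against 25.5 to 27.1 CPM. In the latter list, Hdc had 58 counts in Microglia 4, against 1, 9 and 29 in Microglia 2, 3 and 5. Neurons 4 had 560.8 CPM of ciliary genes, against 813 to 854 CPM. Astrocytes 3 had 4161 CPM of tight and adherens junction genes, against 3557 to 3625 CPM.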

How the results depend on the processing

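Higher calls numbered 1929 as reported. They were 3013 with no filter, 530 against a 2-fold change (glmTreat), 465 with all libraries thinned to the smallest total, 1187 with Input thinned to the mean sorted total, 441 with the sorted libraries as 1 group and 1246 on the deposited normalized values, and 1373 to 2149 with 1 library left out. Lower calls numbered 1025, against 615 with library totals only, 1562 with DESeq2, 1751 with limma voom, 119 against a 2-fold change, 634 without animal 5, 327 thinned, 156 with the sorted libraries as 1 group, 336 on the deposited values and 609 to 1597 with 1 library left out. Genes above all sorted libraries numbered 484, against 803 with no filter, 234 thinned, 318 with Input thinned and 374 to 550 with 1 library left out. Those below all numbered 77, against 125 with RLE scaling, 41 with library totals only, 132 without animal 5, 124 with the deposited library totals (chosen after seeing the data) and 77 to 165 with 1 library left out. With animal as a replicate block 1792 genes were higher and 806 lower, 2571 of the 2954 calls were kept, and among named genes the calls that changed were those of Thy1, Cbr2 and Gh. With the sorted libraries as 1 group, higher genes were 30 of 38 for the endothelial list, 21 of 27 for the myelinating oligodendrocyte list, 21 of 28 for the choroid plexus epithelium list, 15 of 26 for the ependymal and motile cilia list and 1 of 15 for the neuroblast and immature neuron list, and 2 of 22 immediate early and stress genes were lower.

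Of 4780 pairs of a named gene and an alternative, 4447 kept direction and side of the threshold, 298 lost the call, 32 gained it and 3 reversed. The reversed values were those of Clu (-0.18), Camk2a (-0.01) and Nrgn (-0.22) with the sorted libraries as 1 group, none of them called. Thinning left fewer genes tested (3603), and fitting the sorted libraries as 1 group puts the differences between sorted types into the spread. The cause of the other shifts was not tested. Neurons, with 116761 to 393199 counts, limit what low genes can show.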

Other observations

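Of 12 basement membrane and collagen genes tested out of 17, 9 were higher in Input and none was lower, with a median of 1.78. The summed CPM of the list was not highest in Input. It stood at 100.3% of the Input mean in Microglia, 180% in Astrocytes and 50.0% in Neurons. Col4a1 and Col4a2, the chains of vascular type IV collagen, were higher by 2.62 ± 0.25 and 2.48 ± 0.33 with no overlap between libraries. Of 7 tanycyte genes 4 were higher, with a median of 0.86, namely Nes, the neural stem cell filament, at 3.07 ± 0.37, Col23a1, Vim and Dio2. By summed CPM the tanycyte list stood at 141% of the Input mean in Microglia, 141% in Astrocytes and 52.1% in Neurons. Among all genes tested, 21.2% were higher and 11.3% were lower, and the shares called of the excitatory neuron, border macrophage, cell cycle and mitochondrial lists, which rest on 1 to 3 genes each, lie near or below these. Of 7 Purkinje cell genes 4 were higher, with a median of 0.53, namely Foxp2, Calb1, Itpr1 and Rora. The summed CPM of that list was 26.1% of the Input mean in Microglia, 106% in Astrocytes and 134% in Neurons. Of 12 excitatory forebrain neuron genes 3, Camk2a, Nrgn and Rorb, were higher and none was lower, with a median of 0.09, and of 15 hypothalamic neuropeptide genes none passed the filter. All 3 genes tested out of 15 of the monoaminergic and cholinergic list, Ddc, Hdc and Nr4a2, were higher, with a median of 1.37. A gene could pass the filter on low counts through Input alone, so that this count was in part set beforehand. Of 8 border macrophage genes 1, Cbr2, was higher, a call that ended with animal as a block, and of 6 cell cycle genes 1, Hmgb2, was lower at -1.83 ± 0.45, a call that ended with the sorted libraries as 1 group (-1.91). Of 8 mitochondrially encoded genes 1, mt-Nd3, was lower at -1.98 ± 0.53, and that call ended in the same way (-2.30). The 1 platelet gene tested was not called, and the 1 B cell gene tested, Ebf1, was higher by 2.26 ± 0.31 and is also expressed by pericytes; its call ended with the sorted libraries as 1 group (1.67). With the sorted libraries as 1 group the calls of Foxp2 (1.76), Calb1 (1.52), Hdc (1.40), Nr4a2 (0.53), Rorb (0.12), Dio2 (0.01), Itpr1 (0.26), Rora (0.22), Camk2a (-0.01) and Nrgn (-0.22) ended too. Those of Col23a1, with 1 count in all of Microglia, and Cbr2, with 1 count in all of Astrocytes, also ended in that fit. Without animal 5, 2 Purkinje cell genes and 1 excitatory neuron gene were higher. The calls of Dio2, Itpr1, Rora, Camk2a, Nrgn and Cbr2 depended on which libraries entered. All 6 ended without Microglia 4 (0.58, 0.53, 0.32, 0.74 and 0.47 for the first 5). They also ended without Astrocytes 4 (0.72, 0.56, 0.40, 0.68 and 0.39), and each ended without other libraries too. The median of all genes tested was -0.06 without Microglia 4 and -0.04 without Astrocytes 4, against 0.09 with all libraries.

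Of the 484 genes above all 12 sorted libraries, 128 were on a list and 356 were on none. Among those on none, chosen after their values were seen, Slc47a1, an exporter of organic cations, was higher by 3.27 ± 0.29, and Slc13a4, a sulfate transporter, by 3.35 ± 0.40. The next 3 had 3 or fewer counts in a sorted group, too few for a fitted fold. Tbx3, a T-box transcription factor, had 373 counts in all of Input, against 4 in Microglia, 3 in Astrocytes and 4 in Neurons. Edn1, which encodes the vasoconstrictor endothelin-1, had 500 counts in all of Input, against 36 in Microglia, 6 in Astrocytes and 3 in Neurons. Adamts4, a protease of proteoglycans, had 388 counts in all of Input, against 8 in Microglia, 1 in Astrocytes and 14 in Neurons. Of genes below all 12 sorted libraries and on no list, Rpl41, a ribosomal protein gene, was lower at -1.99 ± 0.24 and stood at 59.9 ± 6.33 CPM in Input, against 220.2 ± 54.6 CPM in Microglia, 192 ± 72 CPM in Astrocytes and 319.8 ± 96.8 CPM in Neurons.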
